A study of Homo sapiens with 6 samples.

Results

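Genes that carried many separate N6-methyladenosine (m6A) peaks were examined in MHCC97H cells, a human hepatocellular carcinoma line. They were selected on the vehicle list alone: a gene was taken when the authors' peak list of DMSO-treated cells held 10 or more distinct peaks assigned to it. This gave 144 of the 16158 genes with a DMSO peak (0.891%), and these genes held 1722 of the 42813 DMSO peaks and 1478 of the 41838 FB23-2 peaks. The study compared 3 samples of cells kept for 48 h with FB23-2 at 2 µM, an inhibitor of the m6A demethylase FTO, with 3 samples given DMSO, to look for targets of the inhibitor. Methylated RNA immunoprecipitation sequencing (MeRIP-seq) was used, in which an m6A antibody pulls down fragments of poly(A) RNA. The authors deposited 1 pooled peak list per treatment, with no value per sample. The peak number that chose the genes is therefore given as a description, no value here has a replicate error, and differences between the lists have no test. The lists hold no expression level, so the cell line was not checked against marker genes.

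m6A is added to nuclear RNA by a methyltransferase complex at adenosines in a short sequence context, of which GGAC is the most used form. It is densest near stop codons, in 3′ UTRs and in long internal exons, and the removal enzymes FTO and ALKBH5 can take it off. FTO also acts on a related methylated adenosine beside the cap of many mRNAs, which the same kind of antibody can bind, so peaks at transcript starts can hold either mark. Reader proteins that bind m6A alter splicing, export, translation and decay of the RNA.

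Sequence was at hand only around transcript starts (RefSeq, GRCh38.p14), so only starts that lay inside the span of a peak were read. A span includes any introns, so a start inside it need not lie in enriched sequence. Of 186 RefSeq starts of 115 of the genes, 48 starts in 35 genes had their first 50 transcribed bases wholly inside a DMSO peak. The letters GGAC, searched on the transcript's strand only, occurred in those 50 bases at 10 of the 48 starts (20.8%, exact 95% interval 10.5 to 35.0). They occurred at 20.4% of all 2643 starts inside DMSO peaks and at 18.9% of all 34943 starts, so the windows of these genes held the motif about as often as any start. Stretches of 30 bases around GGAC are shown for 8 genes, 5′ to 3′, with GGAC in capitals.
ATXN1: gcggagccgtacaGGACctgtttcactgca
CDK13: gctgccgaggataGGACgacgagcgcaatc
CFLAR: agaggttctcGGACgccctccggcgaagcc
CLPB: gttGGACgtggtcagcacaggggccggcac
KAT6B: tcaacgacaacaacagggGGACacaaaatg
LMO7: ggaacctagggtggggtagggtagcaGGAC
PAPOLA: gtagcgctcgggcgccatgttaGGACgaag
PAX8-AS1: gctagaactGGACacctcgggggtttcctg

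The ATXN1 window lies at chr6:16761416-16761445 on the minus strand, inside a 5′ UTR peak with a log2 fold of 4.86 in the DMSO list and 3.96 in the FB23-2 list. ATXN1 encodes a polyglutamine protein of the nucleus. The window of CDK13, a kinase that phosphorylates RNA polymerase, lies at chr7:39950375-39950404 on the plus strand, in a peak of 2.80 and 2.83. That of CFLAR, an inhibitor of death receptor signalling, lies at chr2:201118716-201118745 on the plus strand, in a peak of 2.53 and 2.57. The window of CLPB, a mitochondrial protein disaggregase, lies at chr11:72434502-72434531 on the minus strand (1.89 and 2.00). KAT6B, a histone acetyltransferase, has its window at chr10:74826620-74826649 on the plus strand (1.33 and 1.99), and LMO7, an adhesion protein, at chr13:75620454-75620483 on the plus strand (1.18 and 0.99). The window of PAPOLA, the poly(A) polymerase, lies at chr14:96502396-96502425 on the plus strand (2.86 and 2.91). PAX8-AS1, a long noncoding RNA, has its window at chr2:113235527-113235556 on the plus strand in a noncoding exon peak (2.33 and 2.86). All 8 peaks that held these windows were overlapped by a peak of the FB23-2 list. Such a peak can be long and need not begin at the start read: that of LMO7 ran from 75569299 to 75620573.

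A log2 fold here is the authors' value per peak, read as immunoprecipitate over input, which the files do not state; folds of separately called lists show no change between treatments by themselves. Peak positions are given on GRCh38. A peak's span runs from its first to its last base and includes any introns between. A peak was called overlapped when a peak of the other list shared at least 1 base with it on the same strand. Intervals are exact (Clopper-Pearson) 95% intervals that cover the counting of peaks only, and they are too narrow, because peaks of 1 gene are not independent. Whether reads were stranded is not given in the sources used here. Of the 1722 DMSO peaks, 212 (12.3%) in 73 genes overlapped a DMSO peak of the opposite strand, against 15.9% in other genes.

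The selected genes were mostly long coding genes together with a set of long noncoding RNAs. Their median span was 112.6 kb, against 24.7 kb for other genes with a DMSO peak and 90.9 kb for the 624 genes with 7 to 9 DMSO peaks. ZFHX3, a zinc finger homeobox transcription factor, was the longest at 1109.0 kb, and SETD6, a lysine methyltransferase, the shortest at 8.36 kb. In all, 81 genes (56.2%) exceeded 100 kb, against 16.1% of other genes, and 6 were under 20 kb. RefSeq matched 141 of the 144 genes: 125 were protein coding, 15 were long noncoding RNAs and 1, DUXAP10, was a transcribed pseudogene. Long noncoding RNAs made up 10.4% of these genes, 5.79% of other genes and 1.76% of those with 7 to 9 peaks. Of the 16014 other genes 13765 were matched, as were 612 of the 624 with 7 to 9 peaks. Unmatched genes stayed in each total, so each share is a minimum. Whether unequal matching accounts for the higher share in the selected genes was not tested. Most genes stood near the threshold: 53 had exactly 10 DMSO peaks and 37 had 11, while 96 genes just outside had 9. The median number of FB23-2 peaks was 8 for the genes with 10 DMSO peaks and 7 for those with 9. Only 16 genes had 15 or more.

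By function, chromatin regulators, long noncoding RNAs and giant cytoskeletal linkers were the listed groups with the highest shares. Of 66 listed chromatin regulators with a DMSO peak, 12 (18.2%) had 10 or more, as did 7 of 46 giant cytoskeletal linkers (15.2%) and 8 of 46 listed long noncoding RNAs (17.4%), against 0.891% of all genes. The lists were drawn up around large and well-known genes and are no random sample: of all 943 RefSeq long noncoding RNAs with a DMSO peak, 15 (1.59%) had 10 or more. Shares were 9.62% for mitosis and centrosome genes (5 of 52) and 6.67% for regulators of small GTPases (4 of 60). They were 5.45% for extracellular matrix and adhesion (3 of 55), 5.13% for ubiquitin ligases and proteases (2 of 39) and 4.17% for transcription factors (3 of 72). DNA repair had 2 of 50, RNA processing 2 of 61, membrane traffic 1 of 44 and signalling kinases and scaffolds 1 of 73. In total 94 of the 144 genes were in none of the 12 lists.

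The giant cytoskeletal linkers ranged from 11 to 24 DMSO peaks and included the 3 highest numbers, those of SYNE1, SYNE2 and MACF1. SYNE1 (ENSG00000131018; chromosome 6, 152121684 to 152637801, minus strand), a nesprin that ties the nuclear envelope to the cytoskeleton, had 24 DMSO and 14 FB23-2 peaks. Of the DMSO peaks 21 were in coding exons, and 13 of the 24 were overlapped, while all 14 FB23-2 peaks were. The strongest SYNE1 peak, in the 3′ UTR at 152121684 to 152133580, had a DMSO log2 fold of 3.28, and an FB23-2 peak at the identical position had 2.95. Its peaks reached over 50.3% of the gene, all in the 3′ part, as the map of peak positions shows. SYNE2, the related nesprin on chromosome 14, had 21 peaks in each list, of which 15 DMSO and 19 FB23-2 peaks were overlapped. The spectraplakins MACF1 and DST, which cross-link actin and microtubules, went in opposite directions in number: MACF1 had 21 and 18 peaks, DST 20 and 30.

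In DST (chromosome 6, 56457987 to 56954649, minus strand), 12 of the 30 FB23-2 peaks had no DMSO overlap, and 5 of these lay in 1 stretch. Between 56605648 and 56608772 those 5 DST peaks, all exonic, had log2 folds of 1.67 to 3.21 in the FB23-2 list, where the DMSO list held none but the shared peak at 56605998 to 56606422 (2.36). Long DST peaks were also cut differently: 4 DMSO peaks each overlapped 2 or 3 FB23-2 peaks. The DMSO peak of the 86601 bases from 56648598 (log2 fold 3.14) faced an FB23-2 peak of 58293 bases from 56645993 (3.08). UTRN, the dystrophin relative utrophin, had 17 and 12 peaks (12 in each list after peaks within 100 bases were merged), all of them weak, with highest log2 folds of 1.45 (DMSO) and 1.40 (FB23-2). SPTAN1, a spectrin of the membrane skeleton, had 13 in each list, and MYO10, a myosin of filopodia, had 11 and 6 (7 and 6 after merging). Over the 7 linkers, 86 of 127 DMSO peaks (67.7%) were overlapped, against 74.0% in all the selected genes and 81.1% in all genes.

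**Figure D1:**
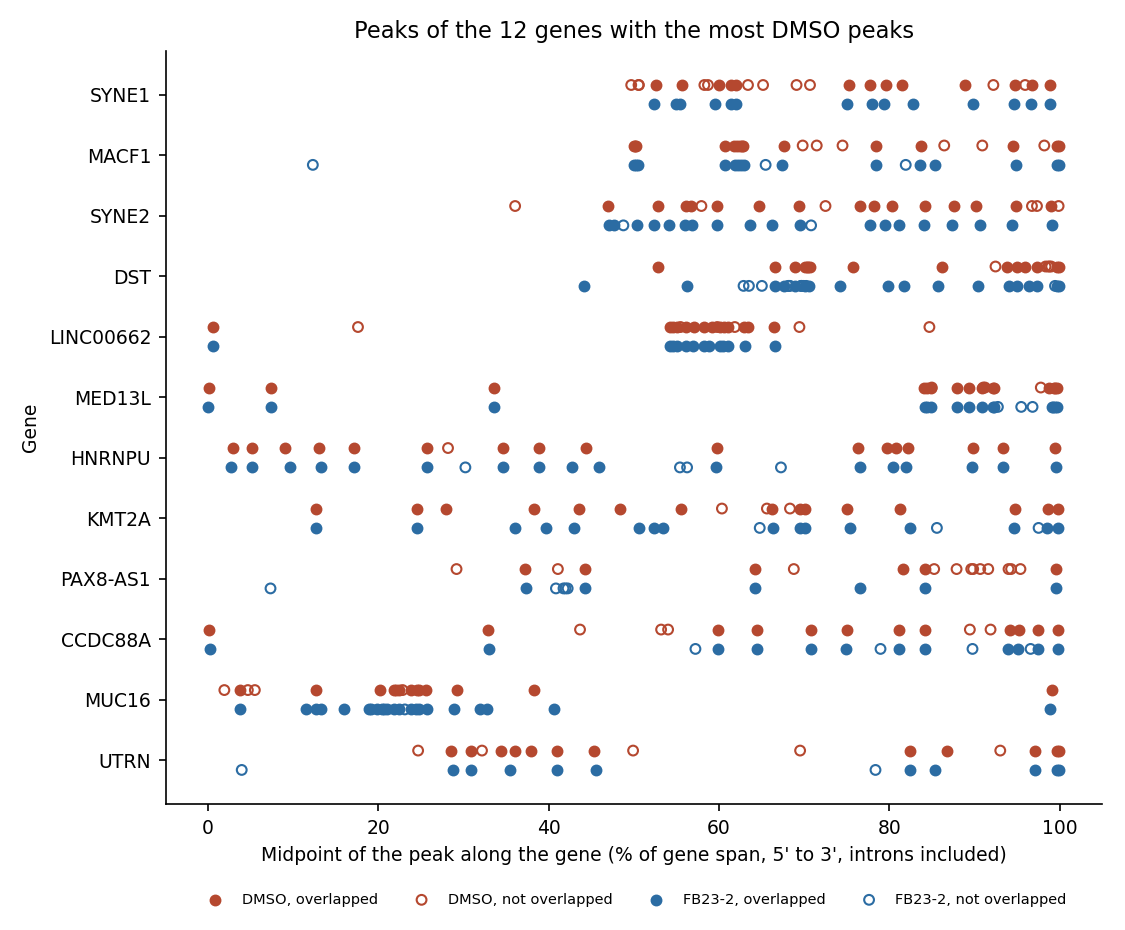
Midpoints of peaks along the 12 genes with the most DMSO peaks, as a percentage of the gene's span from its 5′ to its 3′ end, introns included; red points are DMSO and blue points FB23-2 peaks, filled when overlapped in the other list and open when not. SYNE1 peaks lie in the 3′ part of the gene in both lists, and those of MUC16 toward the 5′ end, apart from 1 peak at the 3′ end in each list.

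Other genes with many exonic peaks code for large surface and matrix proteins. MUC16, a membrane mucin with a very long coding region, had 17 DMSO peaks, 16 of them exonic (94.1%), and 23 FB23-2 peaks, 22 of them exonic. After merging, MUC16 had 12 and 16. Several of its long DMSO peaks faced more than 1 FB23-2 peak: 13 of 17 DMSO peaks and 22 of 23 FB23-2 peaks were overlapped, and 1 DMSO peak overlapped 7 FB23-2 peaks. The DMSO peak at chromosome 19, 8957244 to 8971737 (log2 fold 2.30), for example, faced FB23-2 peaks at 8956919 to 8963468 (2.46), 8963569 to 8963768 (1.28), 8964394 to 8964768 (1.71) and 8965119 to 8967143 (2.35). Toward the 5′ end of MUC16, 3 DMSO peaks with log2 folds of 2.09, 2.74 and 2.23 had no FB23-2 overlap. Among matrix genes, FN1 (fibronectin) had 11 and 9 peaks, COL1A1 (a fibrillar collagen chain) 11 and 8, and FBN1 (fibrillin) 12 and 8. FN1 peaks had log2 folds of 1.84 to 2.98 (median 2.34) in the DMSO list and of 1.06 to 2.84 (median 1.86) in the FB23-2 list, and 10 of the 11 DMSO and 8 of the 9 FB23-2 peaks were overlapped. Of the COL1A1 peaks 10 were exonic, and of the FBN1 peaks 10 were in the 3′ UTR class, where 6 of 12 in all were overlapped.

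The chromatin regulators held 143 DMSO and 122 FB23-2 peaks, of which 110 DMSO peaks (76.9%) were overlapped, against 74.0% in all the selected genes and 81.1% in all genes. The number was lower under FB23-2 in 7 of the 12, equal in 3 and higher in 2; it was lower in 72.2% of all the selected genes, whose choice on the DMSO list favours this, and in 28.8% of all genes. KMT2A, a histone methyltransferase (chromosome 11, 118436490 to 118526832, plus strand), had 18 and 19 peaks (13 and 19 after merging). Of the 18 KMT2A peaks, 15 were overlapped. Its strongest peaks were at 118449756 to 118467685 (log2 fold 2.57 under DMSO, 2.26 under FB23-2) and over the coding exons at 118501016 to 118507590 (2.27), the latter facing an FB23-2 peak of 2.24. KMT2D, a methyltransferase of the same family, had 13 and 7 peaks and 8 overlapped, and all 7 FB23-2 peaks were overlapped. KMT2C, a further member of it, had 10 and 6 peaks with 6 overlapped. The acetyltransferase KAT6A had 10 in each list, all 10 overlapped on both sides. The chromodomain helicase CHD3 likewise had 10 and 10, all overlapped, among them a 5′ UTR peak that began at the first base of the gene with log2 folds of 5.34 and 5.63. KDM5B, a histone demethylase, had 12 and 12 with 11 overlapped and 4 at identical positions. ATRX, a chromatin remodeller, had 12 and 14 (12 in each list after merging), SMARCA2, a SWI/SNF ATPase, 13 and 10, and KAT6B 12 and 9.

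The long noncoding RNAs differed widely among themselves in the share of overlapped peaks, from 33.3% in PAX8-AS1 to 100% in LINC00963. The 15 held 193 DMSO and 174 FB23-2 peaks, with 132 DMSO peaks overlapped (68.4%, 61.3 to 74.9), against 80.0% in other long noncoding RNAs. The median log2 fold of peaks was 1.25 in the 15 and 2.10 in other long noncoding RNAs, and these groups were not matched for peak strength. The number was lower under FB23-2 in 8, equal in 2 and higher in 5. The choice on the DMSO list favours a lower number, and of all genes 28.8% had fewer and 21.6% more FB23-2 peaks. LINC00662 (chromosome 19, 27681072 to 27794005, minus strand) had 20 DMSO and 13 FB23-2 peaks, and all 13 were overlapped. Its strongest peak, at 27698126 to 27698525 (log2 fold 3.35), and another at 27773845 to 27774344 (2.89) had no FB23-2 peak on them. The nearest FB23-2 peak to the former was 17151 bases away. PAX8-AS1, antisense to the thyroid transcription factor gene PAX8, had 18 and 11 peaks, of which 11 and 8 had an adjusted p under 0.001, and the lowest overlapped share of all the selected genes, 6 of 18 (33.3%). The overlapped PAX8-AS1 peaks included the 3 with the highest folds: 113250796 to 113255812 (3.72, facing 3.13), 113239517 to 113240991 (3.04, facing 3.45) and 113276027 to 113276576 (2.46, facing 3.37). Of the 12 PAX8-AS1 peaks without overlap, 9 lay between 113266827 and 113274176, toward the 3′ end, with log2 folds of 0.63 to 2.30.

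FTX and JPX, noncoding RNAs of the X inactivation centre that overlap on opposite strands, had more FB23-2 than DMSO peaks: FTX 14 and 21, JPX 12 and 15. The FTX numbers were 14 and 15 after merging, and 12 in each list when only peaks with an adjusted p under 0.001 were counted. JPX had 11 and 12 after merging, and 8 and 12 with that limit. In FTX 12 of 14 DMSO peaks were overlapped, and the strongest, at chromosome X, 74067579 to 74067978, had log2 folds of 4.58 and 4.37. Between 74005430 and 74006679 the FB23-2 list held 5 FTX peaks separated by 25 to 50 bases (0.87 to 1.47), where the DMSO list held 1 peak (1.11). Opposite-strand DMSO peaks overlapped 9 of 14 FTX and 10 of 12 JPX peaks, so their reads may not be told apart. NEAT1, the scaffold RNA of paraspeckles, had 13 and 16 peaks (7 and 11 with the limit). The NEAT1 peak at the 5′ end, 65422774 to 65426698 on chromosome 11, had 3.60 and 3.74, and the other 12 DMSO peaks had 0.72 to 2.11. Of the NEAT1 peaks 8 DMSO and 7 FB23-2 peaks were overlapped. SNHG14, the long host transcript of small nucleolar RNAs, had 15 and 18 weak peaks, with a highest log2 fold of 1.35 and 1.81, of which 7 and 8 passed the limit. TMEM161B-AS1 had 13 and 6, but 6 in each list with the limit. Its 6 overlapped peaks had log2 folds of 1.18 to 2.51 and the 7 others 0.60 to 1.10.

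Further genes stood out by their peak number or by its difference between the lists. GFOD1, which encodes an oxidoreductase-like protein, had 10 DMSO and 3 FB23-2 peaks, and 9 and 3 after peaks within 100 bases were merged. Its FB23-2 peak at chromosome 6, 13363430 to 13487301 (log2 fold 3.68), spanned 3 DMSO peaks of 4.16, 3.22 and 3.23, including the 5′ UTR peak, so the strong GFOD1 regions were in both lists. The 4 GFOD1 peaks with no overlap, all in the 3′ UTR class, had 0.92 to 1.10. CEP290, a protein of the ciliary transition zone (chromosome 12, 88049016 to 88142099, minus strand), had 13 and 21 peaks (13 and 20 after merging) with 12 of 13 overlapped. In CEP290 12 DMSO peaks carried the 3′ UTR class although they spread over nearly the whole gene, so the class did not mark the end of the gene. ATXN1 had 10 and 15 peaks, and 10 in each list after merging, with all 10 overlapped, and the ATXN1 peak in an intron of 11682 bases (1.22) faced 3 FB23-2 peaks of 1.23 to 1.45. HNRNPU, a nuclear RNA-binding protein of a short gene (23.9 kb), had 18 and 21 peaks spread over the gene, with 17 of 18 overlapped; its strongest peak was in the 5′ UTR (1.93 and 1.85). MED13L, a subunit of the Mediator kinase module, had 19 and 18, but 14 and 17 after merging. CCDC88A, an actin-binding protein, had 17 and 16. CLPB had 14 and 7 (11 and 6 after merging), with all 7 FB23-2 peaks overlapped.

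Over all the selected genes the FB23-2 number was lower in 104 (72.2%), equal in 13 and higher in 27. Of all 16158 genes with a DMSO peak, 28.8% had fewer and 21.6% had more FB23-2 peaks. The median was 11 DMSO and 9 FB23-2 peaks and the mean 11.96 and 10.26, and the FB23-2 number ran from 3 (GFOD1) to 30 (DST). Because the genes were chosen by a high DMSO number, the choice itself favours a lower number in the other list. The same choice made on the FB23-2 list gave 110 genes, with a mean of 12.34 FB23-2 and 10.95 DMSO peaks, and the DMSO number was lower in 70 of them, equal in 13 and higher in 27. The 67 genes in both choices (46.5% of the DMSO-chosen, 60.9% of the FB23-2-chosen) split evenly, 27 with fewer, 13 with equal and 27 with more FB23-2 peaks. Genes reached by the FB23-2 choice alone included LCORL (8 DMSO and 16 FB23-2 peaks), DNHD1 (9 and 13), INO80D (6 and 12) and LRRK1 (7 and 12), named after their values were seen. The plot of peak numbers shows both sides of the line of equal number.

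**Figure D2:**
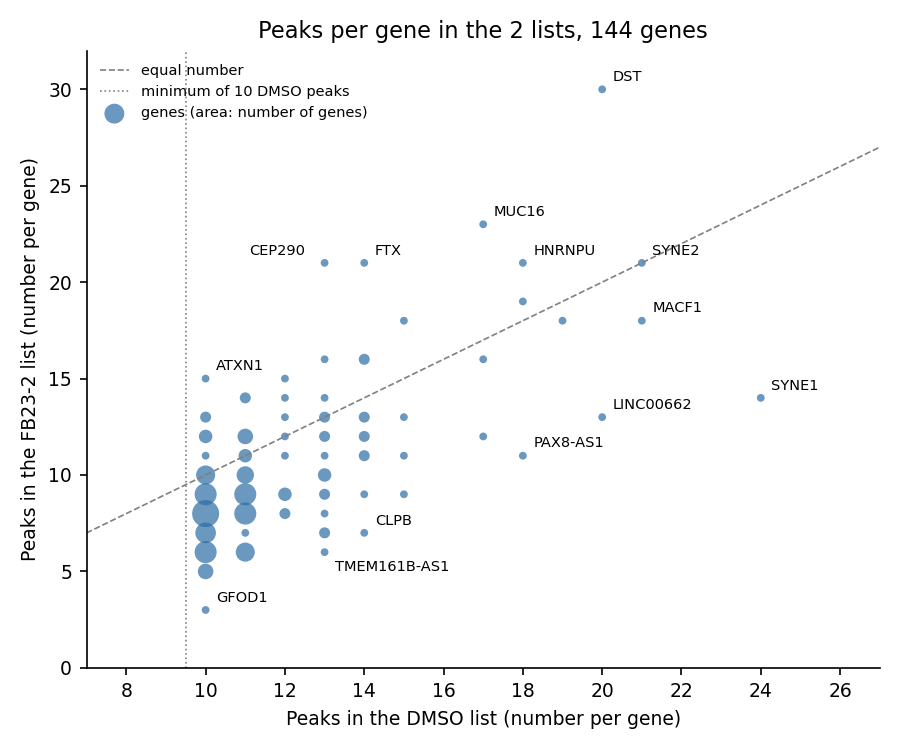
Number of peaks per gene in the DMSO list (x) and in the FB23-2 list (y) for the 144 genes; the area of a point is the number of genes there, the dashed line is equal number and the dotted line the minimum of 10. Of the genes, 104 lie below the line, with SYNE1 the farthest below and DST the farthest above.

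Compared with other genes, fewer of these peaks carried the 3′ UTR class and more the coding exon class. Of the 1722 DMSO peaks, 792 (46.0%, 43.6 to 48.4) were 3′ UTR, against 57.9% in other genes, and 419 (24.3%, 22.3 to 26.4) were coding exon, against 12.5%. Noncoding exons held 238 (13.8%, against 13.02%), 5′ UTRs 147 (8.54%, against 11.8%) and introns 126 (7.32%, against 4.66%). The FB23-2 peaks of the same genes were spread alike: 45.8% 3′ UTR, 23.1% coding exon, 14.5% noncoding exon, 9.07% 5′ UTR and 7.51% intron. Each of these lay within the interval of the DMSO share. A 3′ UTR peak was present in 125 genes, a coding exon peak in 93, a 5′ UTR peak in 89 and an intron peak in 59.

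**Figure D3:**
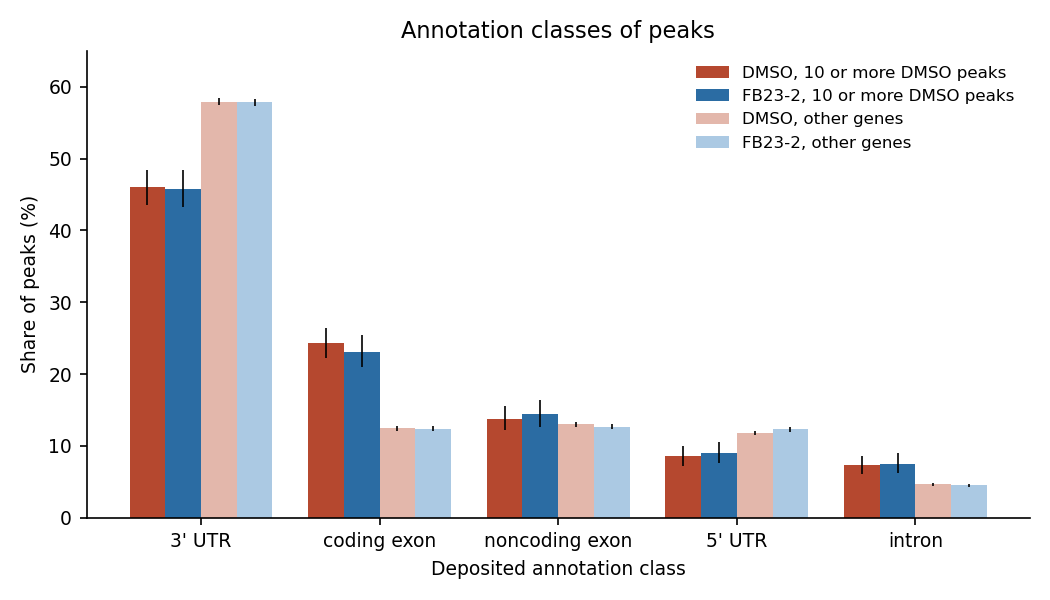
Share of peaks (%) in each deposited annotation class for the genes with 10 or more DMSO peaks (dark bars) and for other genes (light bars), in the DMSO list (red) and the FB23-2 list (blue); error bars are exact 95% intervals for the counting of peaks. The coding exon share is 24.3% and 23.1% in these genes against 12.5% in other genes of the DMSO list.

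The leading class was 3′ UTR in 89 genes, coding exon in 31, noncoding exon in 19, intron in 4 (BCR, COX11, ECHDC2 and KIAA0825) and 5′ UTR in 1 (DDX3X, an RNA helicase, 5 of 10). In 26 genes over 50% of the DMSO peaks were in coding exons. All DMSO peaks were in 1 class in 24 genes. Of these, 19 were noncoding genes, and the other 5, RFFL, KDM5B, C15orf40, ZNF431 and ZNF891, had all theirs in the 3′ UTR class. The 3′ UTR class was often far from the end of the gene. Of the 792 peaks, 357 (45.1%) ended more than 10 kb from the gene's 3′ end, against 12.9% in other genes. Genes were not matched for length here, introns count in the distance, and other genes were shorter (median span 24.7 kb against 112.6 kb). Of the 792 peaks, 7.70% ended at the last base of the gene, against 26.6%. Each gene can have few peaks ending at its last base, so the selection by peak number lowers this share. By gene, 64 of the 144 had a DMSO peak of any class ending there, and the 16014 other genes held 7532 such peaks. By position, 40.9% of DMSO peaks had their midpoint in the last 20% of the gene, against 52.3% in other genes, and 13.3% in the first 20%, against 13.1%. Classes are the authors' own for 1 transcript per peak. The DMSO peaks of a gene named a median of 3 transcripts here and of 2 in genes with 7 to 9 DMSO peaks. That number can rise with the number of peaks.

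Of the 1722 DMSO peaks, 1275 (74.0%, 71.9 to 76.1) were overlapped on the same strand in the FB23-2 list, against 81.4% (81.0 to 81.8) in other genes and 81.1% in all. Of the 1478 FB23-2 peaks, 1237 (83.7%, 81.7 to 85.5) were overlapped in the DMSO list, against 84.1% in all genes. In the genes chosen on the FB23-2 list instead, the order was the other way: 80.7% of their DMSO peaks and 77.2% of their FB23-2 peaks were overlapped. In the 67 genes of both choices the shares were 78.4% and 79.9%. The share fell with the number of peaks per gene over the whole list, from 87.6% in genes with 1 DMSO peak to 83.4%, 78.9% and 75.2% in genes with 2 to 3, 4 to 6 and 7 to 9, and the value of 74.0% here ends this series. The median log2 fold moved with it: it was 2.18 in genes with 1 peak, 1.46, 1.24 and 1.16 in the next groups and 1.18 in the genes with 10 or more.

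**Figure D4:**
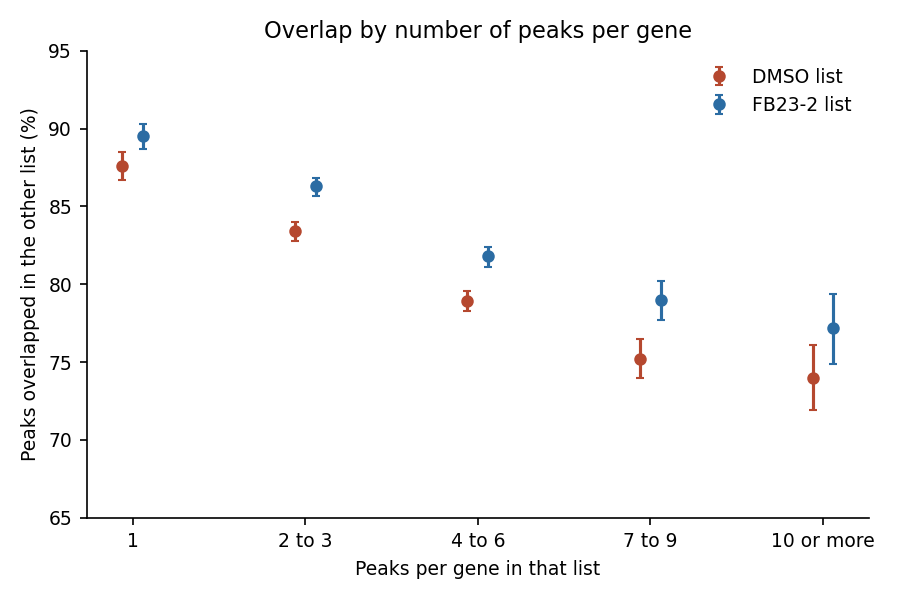
Share of peaks (%) overlapped in the other list, by the number of peaks the gene has in the same list, for the DMSO list (red) and the FB23-2 list (blue); bars are exact 95% intervals for the counting of peaks, and the y axis starts at 65. The DMSO share goes from 87.6% at 1 peak to 74.0% at 10 or more, and the FB23-2 share from 89.5% to 77.2%.

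The median log2 fold of these genes' DMSO peaks was 1.18, against 1.40 in other genes, and overlapped shares were lower among weaker peaks in both. Ranked by the authors' p-value in 10 equal parts, the weakest 3 parts held 43.2% of the DMSO peaks of these genes and 29.4% of those of other genes. In the most significant part 123 of 123 were overlapped, and in the least significant 42.8%, against 38.7% in other genes. In 9 of the 10 parts the interval of these genes held the share of the other genes. With the other genes' share in each part, 74.9% of the DMSO peaks would have been overlapped, close to the 74.0% counted. On the FB23-2 side the same sum gave 79.5%, below the 83.7% counted. There the interval of these genes held the share of the other genes in 7 of the 10 parts. In the remaining parts the share of these genes was the higher one, as with 80.6% against 71.7% in part 8.

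**Figure D5:**
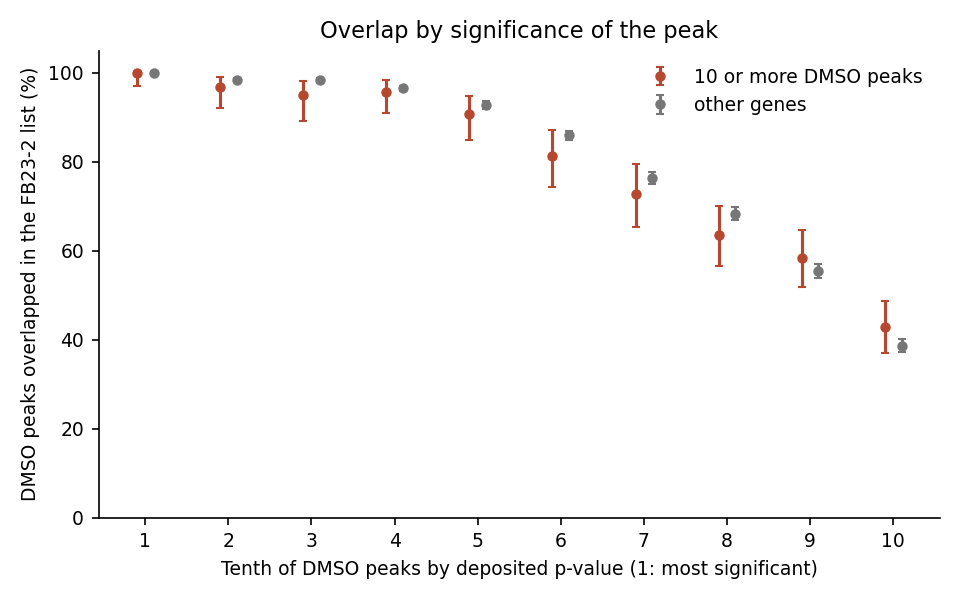
Share of DMSO peaks (%) overlapped in the FB23-2 list, in 10 equal parts of all DMSO peaks ranked by the authors' p-value, for genes with 10 or more DMSO peaks (red) and other genes (grey); bars are exact 95% intervals for the counting of peaks. Both series go from 100% in the most significant part to 42.8% and 38.7% in the least.

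Within classes, the overlapped share of DMSO peaks was 83.7% in 5′ UTRs, 77.7% in 3′ UTRs, 71.1% in coding exons, 70.2% in noncoding exons and 57.1% in introns. In other genes the values were 83.0%, 85.7%, 70.3%, 79.3% and 60.2%. Coding exon, 5′ UTR and intron shares thus lay within the intervals of these genes, while 3′ UTR and noncoding exon shares of other genes lay above them. The 19 DMSO peaks that began at the first base of a gene were all overlapped, as were 63 of 64 that ended at its last base (98.4%, 91.6 to 100). In other genes the shares were 94.1% and 94.7%, and both lay within the intervals of these genes (82.4 to 100 for 19 of 19). Only 127 DMSO peaks (7.38%) had the identical position in both lists, against 13.2% in other genes, and there the median log2 fold was 1.59 under DMSO and 1.61 under FB23-2. The 447 DMSO peaks without overlap had a median log2 fold of 0.99 and a median span of 225 bases, against 1.31 and 700 for those with overlap. They fell in 135 genes, and 79 of them (17.7%) had an FB23-2 peak within 100 bases and 236 (52.8%) within 1000 bases of their ends. These distances were not computed for other genes. Neighbouring FB23-2 peaks of the selected genes were themselves a median of 1100 bases apart.

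Short gaps between peaks were about as common as in other genes. Of 1578 gaps between neighbouring DMSO peaks of a gene, 276 (17.5%) were 100 bases or shorter, against 16.3% in other genes and 18.9% in genes with 7 to 9 DMSO peaks. Of 1334 FB23-2 gaps in the same genes 13.9% were as short, against 15.5% in other genes. In the DMSO list 124 genes had at least 1 such gap. Of the DMSO peaks 121 overlapped 2 or more FB23-2 peaks, and of the FB23-2 peaks 152 overlapped 2 or more DMSO peaks. Such peaks were not counted in other genes.

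Per gene, the median overlapped share was 72.7%, with quartiles of 63.6% and 84.6%. All DMSO peaks were overlapped in 9 genes, among them ATXN1, CHD3, KAT6A and PAPOLA. All FB23-2 peaks were overlapped in 42. These counts are no comparison of the lists, because the choice on the DMSO list left fewer FB23-2 peaks per gene (mean 10.26 against 11.96). They were not made for other genes. After PAX8-AS1, the lowest shares were 40.0% in BDP1, a subunit of an RNA polymerase initiation factor, and in IQGAP2, a scaffold of small GTPase signalling, followed by 46.2% in TMEM161B-AS1. The most significant DMSO peaks without overlap were exonic peaks of SPTAN1 and MYO10. The SPTAN1 peak at chromosome 9, 128574775 to 128581883 (log2 fold 1.46, deposited p of 0), lay 4038 bases from the nearest FB23-2 peak, and that at 128612072 to 128613480 (1.20) lay 75 bases from one. The MYO10 peak at chromosome 5, 16670747 to 16672785 (1.10), lay 100 bases from an FB23-2 peak, and that at 16674905 to 16675054 (1.06) lay 4258 bases from one. Among FB23-2 peaks without DMSO overlap, the most significant was in an intron of SRRM2, a splicing cofactor of nuclear speckles (chromosome 16, 2770224 to 2770323, 1.22), 150 bases from a DMSO peak; it was named after its value was seen.

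The 6 genes with the highest DMSO fold had it in an intron, the 5′ UTR or a noncoding exon, and in 5 of the 6 the peak was overlapped. PCNX1, a membrane protein of the pecanex family, had an intron peak at chromosome 14, 71092840 to 71093089, with a log2 fold of 7.08 under DMSO that faced an FB23-2 peak of 3.35. BCR, a regulator of small GTPases, had an intron peak of 5.51 facing one of 5.68 (chromosome 22, 23263492 to 23264316). The pseudogene DUXAP10, whose family has near-identical copies that can share reads, had 5.44 facing 5.29. CHD3 had 5.34 and ATXN1 4.86 in the 5′ UTR, given above. The exception was KAT6B: its 5′ UTR peak at chromosome 10, 74825352 to 74825574, had a log2 fold of 5.82 with a p of 6.89e-07 and no FB23-2 overlap, and the nearest FB23-2 peak was 1021 bases away. Of the 447 DMSO peaks without overlap, 28 had a log2 fold of 2 or more. Their upper quartile was 1.15, against 1.33 for DMSO peaks without overlap in other genes.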

How the data were processed

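MeRIP-seq of MHCC97H cells (3 DMSO and 3 FB23-2 samples) was used as 2 deposited peak lists, 1 per treatment. Per the submitters' processing notes, HISAT2, Cuffdiff and GRCh38 were used; no peak caller, tool version or read depth is given in the sources used here. Per the file headers the authors give each peak a log2 fold change, a p-value, an adjusted p-value, a class and a gene. No value per sample was used.

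From these, peaks per gene, same-strand overlap (at least 1 base), class shares and exact 95% intervals were computed (Python 3.11.15, numpy 2.4.6, pandas 2.3.3, scipy 1.17.1, matplotlib 3.10.9). The 74 DMSO and 69 FB23-2 peaks without a gene were left out. The overlap step was tested on the DMSO list against a randomly thinned and shifted copy of it. The merging step was tested on a part of the DMSO list. Biotypes and start sequences came from RefSeq (GRCh38.p14).

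The genes and the 12 gene lists were chosen with earlier results of these data known. Genes were named by peak number, its difference between the lists, overlapped share, highest fold, most significant peaks without overlap, single-class genes and list members; not all are printed. Alternatives were other minimum numbers, merged peaks, stricter peak thresholds, other overlap rules, strand ignored, each gene counted once and the choice made on the FB23-2 list. The share by significance and the genes of both choices were chosen after seeing the data.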

Additional observations from a re-analysis of the deposited data

How the results depend on the processing

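No paired analysis was possible because the lists are pooled and hold no value per sample. Leaving out a sample was not possible for the same reason. The minimum number decides which genes count: 420 genes had 8 or more DMSO peaks and 16 had 15 or more. Merging peaks within 100 bases left 77, an adjusted p under 0.001 in both lists 70, and a fold of at least 4 left 1, LINC00662.

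The number of FB23-2 peaks was lower, equal and higher in 291, 63 and 66 genes at a minimum of 8, in 10, 1 and 5 at 15, in 47, 13 and 17 after merging, in 43, 12 and 15 at the adjusted p limit and in 1, 0 and 0 at the fold limit. Chosen on the FB23-2 list it was lower in 27, equal in 13 and higher in 70, the reverse of the main 104, 13 and 27. Of 73 genes named by the rule, the sign of the difference turned in 1 after merging, in 5 at the adjusted p limit and in 10 at the fold limit. These counts hold full reversals only and leave out differences that vanished. After merging, such genes included UTRN (12 in each list), ATXN1 (10), ATRX (12) and RFFL (5). At the adjusted p limit they included FTX (12 in each list) and TMEM161B-AS1 (6).

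The overlapped shares of DMSO and FB23-2 peaks were 70.7% and 80.9% at a minimum of 15, 77.7% and 86.1% at the adjusted p limit, 54.5% and 75% at the fold limit, 53.0% and 61.8% with a reciprocal overlap of 50%, 80.7% and 77.2% chosen on the FB23-2 list, and 78.4% and 79.9% in genes of both choices. With each gene counted once the FB23-2 share was 85.8%. A minimum of 8, merging, an overlap of 50% of the shorter and strand ignored kept both shares within the interval of the main value.

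For 3′ UTR, coding exon, noncoding exon, 5′ UTR and intron in turn, the DMSO class shares were 29%, 44.5%, 18.3%, 4.48% and 3.79% at a minimum of 15, and 0%, 0%, 100%, 0% and 0% at the fold limit. At a minimum of 8 the 3′ UTR share was 51.6%, the noncoding exon share 7.65% and the 5′ UTR share 10.1%. After merging, 3′ UTR was 41.0%, coding exon 29.5%, noncoding exon 16.3% and 5′ UTR 7.02%. At the adjusted p limit coding exon was 30.7%, noncoding exon 11.4% and intron 4.68%. These alternatives change which genes and peaks are counted; other causes were not tested. Read depth is unknown, so it was not judged whether a peak missing from a list lacked enrichment or coverage.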
